A study of Sus scrofa with 55 samples.

Results

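Among 55 pig oocyte libraries, 13 held more counts of 4 granulosa cell markers than of 5 oocyte markers, and these granulosa-rich libraries came mostly from 1 animal. A library was placed on this side when its summed counts of INHA, CYP11A1, HSD17B1 and GJA1, which mark granulosa cells, exceeded its summed counts of GDF9, BMP15, ZP2, ZP3 and ZP4, which mark the oocyte. The other 42 libraries are called oocyte-dominated. Gilt 803 gave 12 of the 13 granulosa-rich libraries, out of its 20, and gilt 801 gave 1 of its 12. None of the 14 libraries of gilt 201 and none of the 9 of gilt 205 were granulosa-rich. The sides therefore differ in animal as well as in RNA content, and over all libraries the 2 cannot be told apart. For this reason genes are counted below only where they passed both over all libraries and within gilt 803, where 12 granulosa-rich stood against 8 oocyte-dominated libraries of the same animal.

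The submitters describe each library as the cytoplasmic RNA of 1 oocyte, separated from the genomic DNA by centrifugation. The RNA was amplified by Smart-seq2, a full-length cDNA protocol, with 16 PCR cycles. All oocytes came from wild-type pubertal gilts (Sus scrofa), labelled Landrace and Yorkshire, aged 208 to 210 days. All had been given 5 IU of pregnant mare serum gonadotropin by intraperitoneal injection 48 h before their ovaries were taken, so every library comes from stimulated ovaries and none from untreated ones. The labels name 5 antral follicle stages and 4 gilts, and the series deals with what passes between oocyte and granulosa cells as the antral follicle grows. The labels call every library an oocyte. In the 13 granulosa-rich libraries the 5 oocyte markers summed to between 12.9 and 2998 CPM (counts per 1000000 counts of all genes except the 13 mitochondrially encoded protein genes), with a median of 683. In the oocyte-dominated libraries that sum lay between 227 and 335132 CPM, with a median of 66751. These sums are part of the rule and overlap between the sides, so they describe the choice. The libraries are called below by the rule.

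The oocyte of an antral follicle is enclosed by cumulus granulosa cells, which send fine projections through the zona pellucida and meet its membrane at gap junctions. Mural granulosa cells line the follicle wall on a basal lamina and, under follicle-stimulating hormone, make estradiol, progesterone and inhibin. The oocyte in turn secretes growth factors that shape cumulus cell growth, matrix and metabolism, and it depends on cumulus cells for products of glycolysis such as pyruvate. Cumulus cells that stay attached to an oocyte when it is picked enter its library with it.

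Because the sides were drawn from measured counts of the same libraries, the values of the 9 marker genes describe the choice and are no result. The granulosa markers summed to between 3005 and 14404 CPM in the granulosa-rich libraries, with a median of 5765, and to between 3.54 and 9458 CPM in the oocyte-dominated ones, with a median of 378. INHA, the inhibin alpha subunit, had a median of 2588 CPM against 130. CYP11A1, which cleaves the side chain of cholesterol, had 1539 against 7.10. HSD17B1, which makes estradiol from estrone, had 702 against 26.0. GJA1, a gap junction protein, had 856 against 17.0. Granulosa markers made up between 50.1% and 99.7% of the 9-gene counts in the granulosa-rich libraries, with a median of 94.3%. The split was not a gap. Just inside it, oocyte 3 of stage 3 from gilt 803 had 23921 granulosa against 23867 oocyte counts, a share of 50.1% (95% Wilson interval 49.6 to 50.5%). Its nearest neighbour inside, oocyte 2 of stage 4 from gilt 803, was at 77.3%. Just outside lay oocyte 3 of stage 2 from gilt 803 at 42.8%, oocyte 1 of stage 1 from gilt 201 at 41.5% and oocyte 4 of stage 5 from gilt 803 at 33.1%. Many libraries below the line thus held granulosa transcripts too, and the sides are 2 ends of a range. The plot of marker sums shows this.

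**Figure D1:**
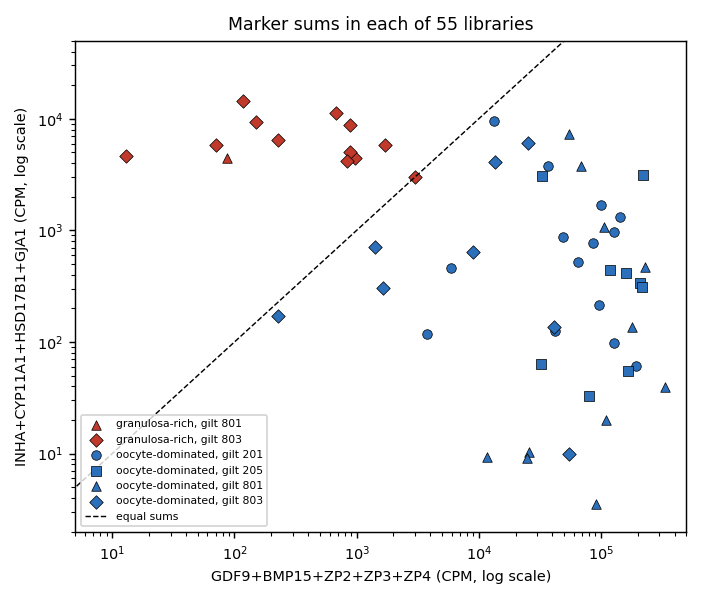
Summed CPM of the 4 granulosa markers (vertical axis, log scale) against summed CPM of the 5 oocyte markers (horizontal axis, log scale), 1 point per library, with colour for the side and symbol shape for the gilt. The dashed line marks equal sums; the 13 granulosa-rich libraries lie above it and are 12 of gilt 803 and 1 of gilt 801.

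Several libraries stood apart and bear on what follows. Oocyte 3 of stage 2 from gilt 803 counts as oocyte-dominated by the rule, but held only 230 granulosa and 308 oocyte marker counts, and 20664 CPM in a list of blood, immune and endothelial genes, with CD74, the invariant chain of antigen-presenting cells, at 5231 CPM and PTPRC, the pan-leukocyte phosphatase, at 583 CPM. A set of 3 oocyte-dominated libraries of gilt 801 (oocyte 4 of stage 2, oocytes 2 and 3 of stage 4) were nearly alike, with Pearson correlations of log2 CPM of 0.987, 0.991 and 0.986, where the next highest among the other pairs of libraries was 0.947. The labels give them different stages, and they were kept as separate libraries. In 3 libraries of gilt 803, total counts were below 1000000: oocytes 1 and 2 of stage 1, both granulosa-rich, and oocyte 4 of stage 2. Granulosa-rich libraries held between 220085 and 26202787 counts (median 9816782), and oocyte-dominated ones between 151104 and 38282850 (median 12891306). The share of counts from the mitochondrially encoded protein genes lay between 2.104% and 30.2% in the granulosa-rich libraries, with a median of 6.26%. It lay between 3.62% and 91.8% in the oocyte-dominated ones, with a median of 76.7%, and had a median of 36.8% in the 8 of gilt 803. Levels are therefore given over the counts of all other genes.

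Within gilt 803, granulosa-rich libraries were found at every stage: 2 of 4 at stage 1, 1 of 4 at stage 2, 3 of 4 at stage 3, 4 of 4 at stage 4 and 2 of 4 at stage 5. Their mean stage was 3.25 ± 1.36 (SD, n = 12) against 2.62 ± 1.60 (SD, n = 8) for the oocyte-dominated libraries. The difference of 0.625 was not significant (two-sided exact permutation test, p = 0.439, adjusted p = 0.439 over 2 tests). The log10 of total counts was 6.80 ± 0.66 against 6.50 ± 0.67, a difference of 0.30 (exact permutation p = 0.331, adjusted p = 0.439). These tests concern the oocytes of 1 gilt. At an equal depth of 100000 counts drawn per library, between 1762 and 8498 genes were detected in the granulosa-rich libraries (median 5550) and between 2598 and 10314 in the oocyte-dominated ones (median 6442).

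A gene was said to separate the sides when its median CPM (pseudocount 1) differed at least 4-fold in the same direction over all libraries and within gilt 803, with a median of at least 10 CPM on the higher side in both. Levels written as 1 value against another are the medians of the granulosa-rich and the oocyte-dominated libraries over all gilts, with the lowest and highest library in parentheses. No p-value is given for any gene, since the sides come from the same expression values. Of 5450 genes outside the 9 that reached this level in both comparisons, 606 were higher in the granulosa-rich libraries, which is 11.1%, and 1560 were lower, which is 28.6%. The median difference over all 5450 was -0.85 on the log2 scale over all libraries and -0.84 within gilt 803, so gene groups below are read against that value. Without the immune-marker library of gilt 803 the counts were 616 and 1866, and without the 3 nearly alike libraries of gilt 801 they were 653 and 1441. Without the 3 libraries under 1000000 counts they were 809 and 1475. The balance of directions depended on the scaling. Higher genes were 27.98% of those past the fold here, 40.7% with TMM factors, 51.4% with DESeq2 size factors and 87.3% with CPM over all counts, mitochondrial ones included, where 1362 genes were higher and 198 lower. Under all 4 scalings, 518 genes were higher and 181 lower.

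For each of the 5450 genes the ranges of the sides overlapped over all libraries (0.0% without overlap in either direction). Within gilt 803, 3 genes (0.055%) were lower in every granulosa-rich library than in any oocyte-dominated one, namely FRMD3, TAF3 and LIG3, and no gene (0.0%) was higher without overlap. These 3 were named after their values were seen. Median levels were 2.69 CPM against 59.0 within gilt 803 for FRMD3, 3.96 against 61.6 for TAF3, a subunit of a general transcription factor, and 36.3 against 302 for LIG3, a DNA ligase. Of the 606 higher genes, 129 had counts in all 13 granulosa-rich libraries. Among these 13, 2 libraries held under 1000000 counts, where low levels could not be detected. The share of all 5450 genes with counts in all 13 was not worked out. Of the 606, 497 were also at least 4-fold above the oocyte-dominated median in the single granulosa-rich library of gilt 801. This library, the only granulosa-rich library from another animal, was among the 13 used to call the 606 genes. The count of 497 is therefore no independent check in another animal. How many of all 5450 genes reached 4-fold in this library was not worked out.

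**Figure D2:**
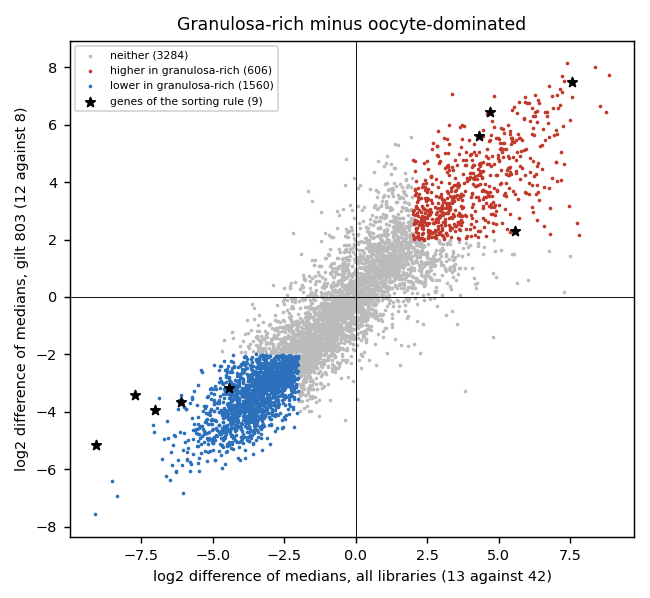
Log2 difference of median CPM (granulosa-rich minus oocyte-dominated, pseudocount 1) over all libraries (horizontal axis, 13 against 42) and within gilt 803 (vertical axis, 12 against 8), 1 point per gene. Red points are the 606 higher genes, blue the 1560 lower ones, grey the rest, and stars the 9 genes of the sorting rule, which were chosen on these values.

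The follicle-stimulating hormone receptor, the nuclear receptors NR5A1 and NR5A2 and GATA6 were higher on the granulosa-rich side. FSHR lay between 0 and 866 CPM there, with a median of 214, and between 0 and 273 CPM in the oocyte-dominated libraries, with a median of 0.24. The log2 difference was 7.44, and 7.51 within gilt 803. FSHR was at 10 CPM or more in 9 of 13 granulosa-rich and 15 of 42 oocyte-dominated libraries, so the sides overlapped. NR5A2, a nuclear receptor needed for ovulation, had a median of 79.4 CPM (0 to 316) against 0.18 (0 to 164). NR5A1, the steroidogenic factor, had 29.0 CPM (0 to 198) against 0.18 (0 to 79.7), and GATA6, a transcription factor of granulosa cells, had 140 CPM (0 to 485) against 0.73 (0 to 387). Of 15 members of this list found in the table, 6 reached the level, 4 were higher and 2 lower, with a median log2 difference of 5.38 (4.22 within gilt 803). The 2 lower ones were NR0B1, a repressor of NR5A1, with 0.36 CPM against 87.4, and GATA4, the other granulosa GATA factor, with 5.75 against 30.9. GATA4 was not past the fold under every scaling: its log2 difference was -2.24 here and -0.36 with CPM over all counts. The estrogen receptor genes ESR1 and ESR2 were below the level, with medians of 0 on both sides. AMH, the hormone of growing preantral and small antral follicles, had no count in any of the 55 libraries. LHCGR, the luteinizing hormone receptor, had counts in 1 granulosa-rich library, at 0.30 CPM, and in 11 oocyte-dominated ones, at up to 90.8 CPM. Granulosa cells fewer in number and granulosa cells with less RNA each cannot be told apart in such libraries.

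Genes of cholesterol uptake and of the electron supply to CYP11A1 accompanied it. SCARB1, the receptor that takes cholesterol from high-density lipoprotein, had a median of 217 CPM (0.21 to 1488) in the granulosa-rich libraries against 4.07 (0 to 511). FDXR and FDX1, ferredoxin reductase and ferredoxin, which pass electrons to CYP11A1, had 80.7 CPM against 2.11 and 318 against 53.97. TSPO, a mitochondrial outer membrane protein studied for cholesterol import, had 86.6 CPM against 0. Of 11 measured members these 4 were higher, and they were higher under all 4 scalings. STAR, the acute regulator that delivers cholesterol to the mitochondrion, was below the level: it had counts in 4 of 13 granulosa-rich libraries, up to 561 CPM, and a median of 0. The list's median log2 difference was 1.99 (1.04 within gilt 803).

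Activin and inhibin subunits and their binding proteins formed a further group. INHBA, the subunit of activin A, lay between 44.4 and 2081 CPM in the granulosa-rich libraries, with a median of 341, against a median of 52.96 (0 to 1227). All 13 granulosa-rich libraries held at least 10 CPM of it, as did 31 of the 42 others. INHBB had 102 CPM against 1.78. FST, follistatin, which binds activin, had 465.7 CPM (0 to 1199) against 20.6 (0 to 1397), and FSTL1 had 69.9 against 5.09. ID2, a target of BMP signalling, had 467 CPM (0 to 1159) against 7.65, and SMAD2, which carries the activin signal, had 583 CPM against 50.2. The 3 lower members were receptors: ACVR1B, an activin receptor, had 0.27 CPM against 44.5, ACVR1 2.09 against 26.6 and BMPR2, a receptor for BMP15, 2.75 against 18.2. Of these, ACVR1B alone was lower under all 4 scalings, and the receptors TGFBR1, BMPR1A and BMPR1B were past the fold in neither direction. Of 14 measured members, 6 were thus higher and 3 lower, the latter a smaller share than the 28.6% of all genes, with a median difference of 1.17 (0.96 within gilt 803). ID3 was near equal, with 819 CPM against 728. INHBA was the 1 higher member that fell short of the fold under a scaling: with DESeq2 size factors its log2 difference within gilt 803 was 1.85.

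Among contact genes, CDH2, which codes for N-cadherin, and FSCN1, fascin, which bundles actin in cell projections, marked the granulosa-rich side. CDH2 had a median of 368 CPM (0 to 2344) against 1.54 (0 to 383), a log2 difference of 7.18, and FSCN1 405 CPM (0.11 to 1441) against 2.11 (0 to 776), a difference of 7.03. Within gilt 803 the differences were 5.05 and 5.66. CDH1, E-cadherin, was on the other side, with 0.60 CPM (0 to 33.8) against 139 (0 to 449). It reached 10 CPM in 2 granulosa-rich and 39 oocyte-dominated libraries. JAG1, a Notch ligand, had 43.2 CPM against 356 and EFNB1, an ephrin, 1.47 against 46.3. KITLG, the ligand for the oocyte's KIT receptor and in textbook accounts a product of granulosa cells, was lower in the granulosa-rich libraries, with 0.64 CPM (0 to 54.8) against 54.3 (0 to 429) and a log2 difference of -5.08 (-3.20 within gilt 803), but it was past the fold under 2 of the 4 scalings only. Of 11 measured members, 2 were higher and 4 lower, where 11.1% of all genes were higher and 28.6% lower. With so few members these counts are not read as a trait of the list. The list's median was -1.59 and 0.85 with CPM over all counts, where the median of all genes was 1.05, but CDH1 and EFNB1 were lower and CDH2 and FSCN1 higher under all 4 scalings. Other connexins than GJA1 did not pass: GJA5 had 122 CPM against 3.41 over all libraries, but its difference within gilt 803 was 0.82.

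Of 17 genes of cumulus expansion and ovulation, 4 reached the level, and 2 of these were higher. PTGES, prostaglandin E synthase, had a median of 271 CPM (0 to 1264) against 1.52 (0 to 2484). HAS2, which makes the hyaluronan of the expanding cumulus, had 10.1 CPM (0 to 714) against 0 (0 to 444) and was at 10 CPM or more in 7 of 13 granulosa-rich and 5 of 42 oocyte-dominated libraries. Its median was just above the minimum of 10 CPM, and it passed under 3 of the 4 scalings, where PTGES passed under all 4. VCAN, versican, and PGR, the progesterone receptor, did not pass within gilt 803, with 251 CPM against 51.01 and 25.03 against 1.94 over all libraries. Other ovulatory genes were near 0 in most granulosa-rich libraries: PTX3 had counts in 1 of 13, TNFAIP6 in 3 and PTGS2 in 8, with 2 at 10 CPM or more. TNFAIP6 reached 1497 CPM in 1 library.

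Of 11 measured matrix and basal lamina genes, 8 were higher in the granulosa-rich libraries and 3 lower. SERPINE2, an inhibitor of plasminogen activators, lay between 55.5 and 14032 CPM in the granulosa-rich libraries, with a median of 4656, and between 0.69 and 10434 CPM in the others, with a median of 64.8. The log2 difference was 6.15 (5.68 within gilt 803), and SERPINE2 was higher in 86.8% of all pairs of 1 library from each side. HSPG2, perlecan, had 330 CPM (0 to 1124) against 1.57, COL4A2, a collagen IV chain, 152 against 0.78, SPARC 255 against 8.05, TIMP1 and TIMP3, inhibitors of matrix metalloproteinases, 368 against 47.6 and 33.7 against 3.18. LAMB2 had a median of 31.9 CPM in the granulosa-rich libraries. The laminin chains LAMB1 and LAMC1 and NID2 were lower, with 4.14 CPM against 104, 5.55 against 67.5 and 6.09 against 56.4. Under all 4 scalings 7 were higher and 1, LAMB1, lower. The share of lower members is near the 28.6% of all genes. The list's median difference was 4.82, and 3.36 within gilt 803.

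**Figure D3:**
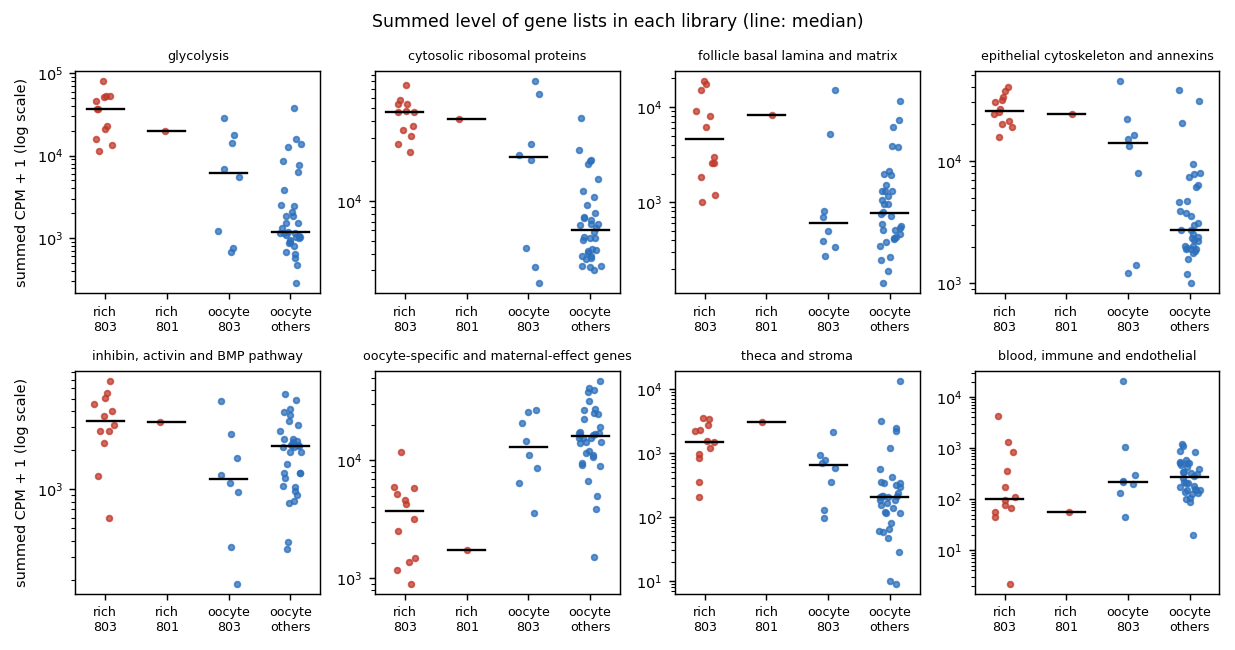
Summed CPM plus 1 (log scale) of 8 gene lists in each library, split into granulosa-rich libraries of gilt 803 and gilt 801 (red) and oocyte-dominated libraries of gilt 803 and of the other gilts (blue), with lines at the medians. The glycolysis sum has medians of 37121 CPM in granulosa-rich and 6182 CPM in oocyte-dominated libraries of gilt 803, and the oocyte list lies lower on the red side.

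Most measured genes of glycolysis were higher in the granulosa-rich libraries. ENO1, enolase, lay between 5678 and 27978 CPM in the granulosa-rich libraries, with a median of 15181, and between 2.44 and 16274 CPM in the others, with a median of 313. PKM, pyruvate kinase, lay between 1460 and 10994 CPM (median 5586) against 2.65 to 5415 (median 114). It was higher in 96.9% of library pairs and ENO1 in 96.5%, although the ranges overlapped. GAPDH had a median of 3454 CPM against 234. GPI, HK1, PGK1, PGAM1 and LDHA, which run from the hexokinase step to lactate, had medians of 666, 251, 404, 415 and 764 CPM against 75.7, 6.86, 8.70, 2.51 and 47.9. Of 11 measured members, 8 were higher, under all 4 scalings, and 1, ALDOC, was lower, with 1.04 CPM against 42.7. The list's median difference was 4.82, and 4.14 within gilt 803. ALDOA, the other aldolase, had 5039 CPM against 177 but just missed the fold within gilt 803, at 1.99. The summed list lay between 11265 and 81392 CPM in the granulosa-rich libraries (median 36917) and between 280 and 37504 in the others (median 1269). All 13 granulosa-rich libraries were above the oocyte-dominated median, and 1 of the 42 oocyte-dominated libraries was above the granulosa-rich median.

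Cytoskeletal genes and the cytosolic ribosome were higher as sums, with a smaller step inside gilt 803. VIM, vimentin, lay between 1235 and 6370 CPM (median 3934) against 0 to 5004 (median 105), and ACTG1, gamma actin, between 2944 and 11516 (median 6115) against 124 to 7769 (median 495). ANXA2, S100A11, TPM1, TPM2, ANXA6 and S100A6 were also higher, and MYL6 was lower, with 5.82 CPM against 40.8. Of 18 measured members, 8 were higher and 1 lower, with a median difference of 3.22 (1.84 within gilt 803). The log2 difference of ACTB, beta actin, was 3.64 over all libraries and 1.01 within gilt 803, and that of TMSB10, an actin-binding thymosin, was 3.18 and 0.48. Ribosomal protein genes showed the same step. Their sum lay between 23614 and 75150 CPM in the granulosa-rich libraries (median 46688) against 2392 to 80911 (median 6418), but the oocyte-dominated libraries of gilt 803 had a median of 21361. Of 32 measured ribosomal genes, only RPSA, RPL3 and RPL7A were past the fold in both comparisons, and none was lower. Of all genes, 11.1% were higher and 28.6% lower, so the count of higher ribosomal genes was near the share of all genes. The list's median difference was 2.63 over all libraries and 1.09 within gilt 803. Genes of this kind, and actins and GAPDH, have near-identical copies in the genome, and how reads shared between copies were counted is not stated, so their levels are uncertain.

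Redox enzymes were higher in most granulosa-rich libraries. GPX3, a secreted glutathione peroxidase, lay between 316 and 5591 CPM (median 1186) against 0 to 2659 (median 49.3) and was higher in 95.4% of library pairs. GSTA4, a glutathione transferase that acts on lipid aldehydes, had a median of 783 CPM against 80.5, and PRDX6, a peroxiredoxin, 221 against 2.05. MGST3, PRDX5, GSTO1 and GCLM were also higher, which makes 7 of 14 measured members, all of them under the 4 scalings. GSTM3 was lower, with 10.7 CPM against 245. The list's median difference was 1.92 (2.46 within gilt 803). PRDX1 and PRDX2 did not pass, with 410 CPM against 169 and 1893 against 718. The summed list was above the oocyte-dominated median in 12 of 13 granulosa-rich libraries, and no oocyte-dominated library was above the granulosa-rich median.

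Some stress and early response genes were higher too. DDIT4, an inhibitor of mTOR signalling, had a median of 1170 CPM (0.32 to 3599) against 7.80 (0 to 1270), and TXNIP, the thioredoxin-binding protein, 531 CPM against 6.77. EGR1 had 425 CPM against 45.3, and GADD45A and GADD45B were higher too. Of 15 measured members, 5 were higher and 1, IER3, was lower, with a median difference of 2.85 (0.72 within gilt 803). Of all genes, 11.1% were higher and 28.6% lower. Under all 4 scalings DDIT4, TXNIP, EGR1 and GADD45B were higher, while GADD45A and IER3 did not hold. FOS had 156 CPM against 0.02 over all libraries, but its difference within gilt 803 was 0.17, where the 8 oocyte-dominated libraries had a median of 86.01 CPM.

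Few genes of proliferation, cholesterol synthesis and the IGF system were higher, where 11.1% of all genes were higher and 28.6% lower. CCND2, the cyclin induced by follicle-stimulating hormone in granulosa cells, had a median of 251 CPM (0 to 1248) against 2.36 and was the 1 higher gene of 15 in the proliferation list. CCNB2, MCM2, UHRF1, BIRC5 and AURKB were lower, with CCNB2 at 10.4 CPM against 164, and MCM5 and MCM6 were near equal, at 212 CPM against 136 and 95.1 against 96.2. HMGCS1 and CYP51A1 of the cholesterol synthesis list were higher, with 45.8 CPM against 9.48 and 26.1 against 3.21, and the list's median difference was 0.24. INSR, the insulin receptor, was the 1 higher gene of 5 in the IGF list, with 22.9 CPM against 0.07. IGF2R and PAPPA2 were the 2 lower ones. The proliferation and IGF lists had medians of -1.54 and -1.88, and of 0.31 and -0.21 with CPM over all counts. IGF1 had 28.7 CPM against 0, but its difference within gilt 803 was 0.70.

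Outside the lists, ANGPTL4 and CHST8 had the largest differences over all libraries among the 20 higher genes picked by size. ANGPTL4, an inhibitor of lipoprotein lipase, had a median of 337 CPM (0.15 to 1748) against 0.02 (0 to 1186), a log2 difference of 8.36 (8.0 within gilt 803). LPL, lipoprotein lipase itself, had 129 CPM (0 to 783) against 0 (0 to 282), with 7.03 and 7.04. EPHX2, an epoxide hydrolase, had 275 CPM against 2.29, and the phospholipases PLA2G7 and PLAAT3 had 175 against 0.26 and 169 against 0.21. CHST8, a carbohydrate sulfotransferase, had 482 CPM against 0.30. PGRMC1, a progesterone receptor membrane component, had 465 CPM (0 to 1696) against 4.66, and MYC, the growth-related transcription factor, 147 CPM (0 to 1221) against 0. The rest of the 20 held MAOB, a monoamine oxidase, MMP11, a matrix metalloproteinase, PROS1, the anticoagulant protein S, GRB14, an adaptor of the insulin receptor, RND3, a small GTP-binding protein, and ZYX, a focal adhesion protein, with medians between 154 and 326 CPM against at most 1.78. It also held TMEM176A and TNFAIP8L3, at 107 CPM against 0.39 and 80.0 against 0. None of these was present in every granulosa-rich library except ANGPTL4 and PLA2G7, which were below 1 CPM in at least 1. Among the 10 higher genes with the highest CPM, a value that also grows with transcript length, were RARRES1, a retinoic acid responsive gene, MIF, a cytokine, SLC25A3, the mitochondrial phosphate carrier, and ARRDC4, an arrestin family gene. RARRES1 lay between 1394 and 28193 CPM (median 8101) against 175 to 15672 (median 613), and MIF between 582 and 8679 (median 2574) against 7.18 to 3294 (median 110). SLC25A3 had a median of 2146 CPM against 101 and ARRDC4 of 2053 against 222. COX7C, a subunit of cytochrome c oxidase chosen after its value was seen, was higher in 96.7% of library pairs without a large step, at 892 CPM against 240 and a log2 difference of 1.89.

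**Figure D4:**
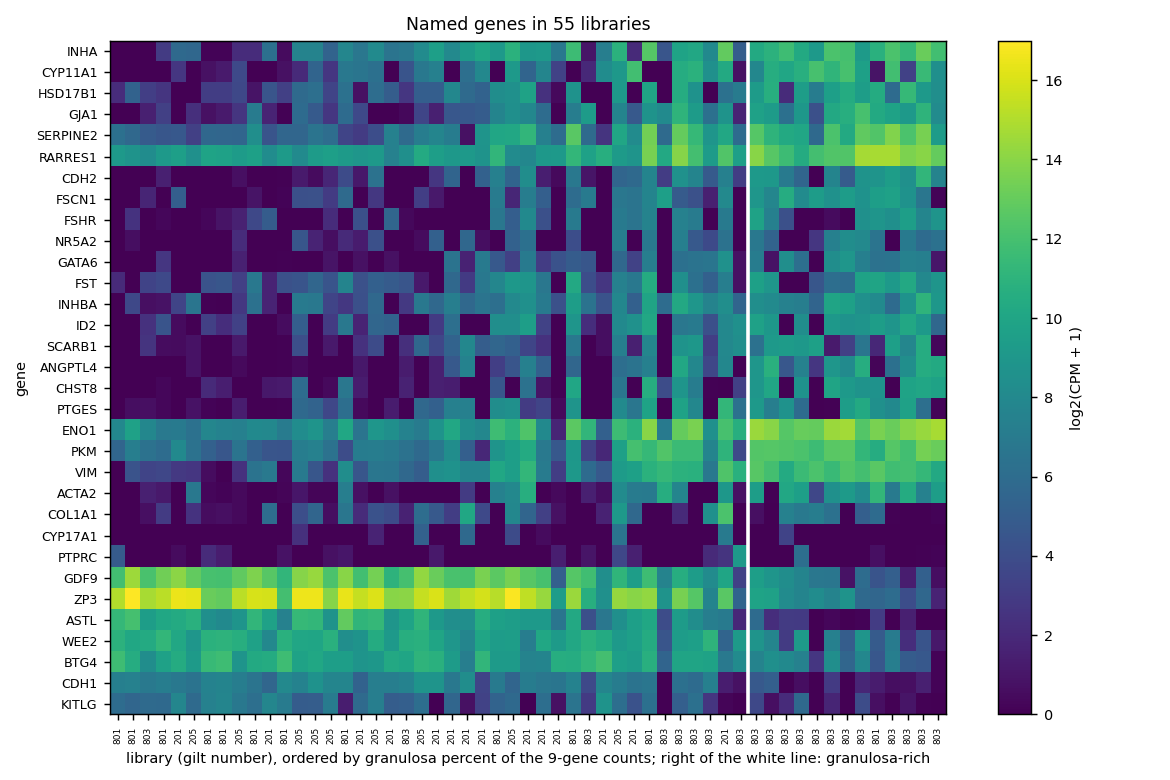
Log2 of CPM plus 1 of 32 genes (rows) in 55 libraries (columns, labelled by gilt), ordered by the granulosa share of the 9-gene counts, with the 13 granulosa-rich libraries to the right of the white line. SERPINE2, ENO1 and PKM are bright in most libraries on the right, ASTL and CDH1 are bright on the left, and FSHR, NR5A2 and FST are dark in some libraries on the right.

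Most measured genes of an oocyte-specific and maternal-effect list were lower in the granulosa-rich libraries. ASTL, which codes for ovastacin, the protease that cleaves ZP2 after fertilization, lay between 0 and 59.9 CPM there (median 0.21) and between 2.95 and 7769 CPM in the oocyte-dominated libraries (median 660). Its log2 difference was -9.10 (-7.56 within gilt 803), and it was higher on the granulosa-rich side in 1.28% of library pairs. WEE2, the oocyte kinase that holds meiotic arrest, had 31.4 CPM (0 to 619) against 1011 (21.6 to 2480). BTG4, which directs deadenylation of maternal mRNA, had 150 CPM against 924, H1-8, the oocyte linker histone, 243 against 1594, and DNMT1, the maintenance DNA methyltransferase, 865 against 4904. MOS, the kinase of meiotic arrest, had 43.2 CPM against 896, OOEP 4.37 against 395 and OOSP2 5.55 against 269. Of 21 measured members, 14 were lower and none higher, and the list's median difference was -3.12 (-2.51 within gilt 803), beside -0.85 over all genes. Under all 4 scalings 7 held, namely ASTL, CPEB1, LHX8, MOS, OOEP, OOSP2 and WEE2. KIT, the receptor for KITLG, was near equal, with 134 CPM against 167. The oocyte list still summed to between 899 and 11790 CPM in the granulosa-rich libraries (median 3210), below the oocyte-dominated median of 15518 in all 13. The lowest sum, in oocyte 1 of stage 5 from gilt 803, held 566 CPM of DNMT1, which somatic cells also express, and no ASTL count, 0.11 CPM of BTG4, 1.16 of WEE2 and 5.15 of H1-8.

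The other genes with the largest differences to the oocyte-dominated side included NR0B1 and CDH1, given above. PCOLCE2, a procollagen proteinase enhancer, had 0.32 CPM against 128, SLC7A3, a carrier of cationic amino acids, 0.15 against 66.7, and CBR3, a carbonyl reductase, 0.73 against 86.9. CUX2, a homeobox gene, had 0.18 CPM against 63.2, PIM3, a kinase, 0.73 against 78.9 and OSBPL10, a lipid transfer protein, 0.51 against 65.5. B3GNT4, a glycosyltransferase, had 5.55 CPM against 485. The remaining 11 of the 20 (ARL15, BTBD6, CACNA2D4, FANK1, IER5L, KAZN, TRIM50, VWA7, WDR91, ZNF648 and ASTL) had medians of at most 2.36 CPM in the granulosa-rich libraries. MANBA, a lysosomal mannosidase chosen after its value was seen, was higher on the granulosa-rich side in 3.30% of library pairs, with 7.81 CPM against 839.

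Markers of other follicle and ovarian cells were measured beside these. Of 22 genes of a theca and stroma list in the table, 5 reached the level, and ACTA2, RGS5 and NR2F2 were higher and MYH11 lower. Under all 4 scalings only ACTA2 and RGS5 held. ACTA2, smooth muscle actin, lay between 0.09 and 2391 CPM (median 612) against 0 to 1642 (median 0.33), a log2 difference of 8.84 (7.73 within gilt 803). It was at 10 CPM or more in 12 of 13 granulosa-rich and 11 of 42 oocyte-dominated libraries. RGS5, a pericyte gene, had 344 CPM against 0.55, with differences of 7.80 and 2.16. Genes that define theca cells and fibroblasts were at or near 0 in most granulosa-rich libraries. CYP17A1, with which theca cells make androgens, had counts in 1 granulosa-rich library (9.91 CPM), LUM in 1 (0.15 CPM), COL3A1 in 6 with a median of 0, and OGN in none. INSL3, the theca hormone, was at 10 CPM or more in 5 of 13 granulosa-rich and 6 of 42 oocyte-dominated libraries, at up to 677 and 290 CPM, and DCN, decorin, in 5 and 8, at up to 843 and 565 CPM. COL1A1 had a median of 0.63 CPM against 3.13, and COL1A2 0.55 against 20.3. The summed list lay between 205 and 3555 CPM in the granulosa-rich libraries (median 1519) and between 8.05 and 13242 in the others (median 212). The part of theca or stroma cells in the differences was not tested.

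Of 21 genes of a blood, immune and endothelial list in the table, 1 reached the level, TEK, an endothelial receptor kinase, and it was lower, with 9.85 CPM against 148. PTPRC had counts in 4 granulosa-rich libraries and reached 10 CPM in 1, oocyte 1 of stage 3 from gilt 803, at 70.8 CPM. CD74 had a median of 1.52 CPM and a highest value of 2670 CPM, in oocyte 1 of stage 1 from gilt 803, 1 of the shallow libraries. C1QA and CD68, macrophage genes, were at 10 CPM or more in 3 and 1 granulosa-rich libraries, at up to 549 and 631 CPM. CD163 had no count in any granulosa-rich library, and HBB, the beta globin gene, had counts in 2, at up to 0.45 CPM. The summed list lay between 1.22 and 4246 CPM (median 93.8) against 18.5 to 20664 (median 239).

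The granulosa-rich libraries differed widely from each other. CYP11A1 lay between 0.90 and 4326 CPM among them, and the 2 lowest, oocyte 3 of stage 1 from gilt 801 (0.90 CPM) and oocyte 4 of stage 4 from gilt 803 (8.71 CPM), held 466.01 and 735 CPM of FSHR and 1403 and 2647 CPM of HSD17B1. The 3 libraries with no FSHR count, oocyte 2 of stage 1, oocyte 1 of stage 3 and oocyte 2 of stage 5 from gilt 803, held 4326, 1661 and 4306 CPM of CYP11A1. Oocyte 3 of stage 4 from gilt 803, at 0.42 CPM of FSHR, held 2250 CPM of CYP11A1. Most granulosa-rich libraries with FSHR at 10 CPM or more held both, all of them from gilt 803. Oocyte 1 of stage 4 held 358 CPM of FSHR and 3630 CPM of CYP11A1. In the same order, oocyte 2 of stage 3 held 214 and 2895 CPM, and oocyte 2 of stage 4 held 165 and 1539. Oocyte 2 of stage 2 held 365 and 802 CPM, and oocyte 1 of stage 5 held 452 and 348. Oocyte 3 of stage 3 held 866 and 233 CPM, and oocyte 1 of stage 1 held 16.5 and 1051. Oocyte 2 of stage 1 is 1 of the 2 shallow libraries, where 3 counts equal 16.6 CPM, so low levels could not be detected in it. These libraries were picked out after their values were seen.

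The 3 libraries with the highest matrix sums, oocyte 2 of stage 3 (18884 CPM), oocyte 1 of stage 4 (17282 CPM) and oocyte 2 of stage 2 (15152 CPM), all from gilt 803, owed much of these sums to SERPINE2, a member of the list, at 11890, 14032 and 7475 CPM. Oocyte 2 of stage 3 also held the highest INHA (8803 CPM), INHBA (2081 CPM) and HAS2 (714 CPM) of the 13. Glycolysis sums were highest in oocyte 1 of stage 5 (81392 CPM) and lowest in oocytes 2 and 1 of stage 1 (11265 and 16013 CPM) and in oocyte 2 of stage 2 (13484 CPM), all from gilt 803. Both stage 1 libraries are shallow, and stages have 1 to 4 granulosa-rich libraries each, so no comparison among stages is made. Oocyte 1 of stage 5, with 99.7% granulosa markers, also had the fewest genes detected at equal depth, 1762. The library at the other end, oocyte 3 of stage 3, had a granulosa share of 50.1%, the highest mitochondrial share of the 13 (30.2%) and the most genes detected at equal depth (8498).

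The granulosa-rich library of gilt 801 had 98.1% granulosa markers (95% Wilson interval 97.9 to 98.2%) and was among the 13 used to call the higher genes. It held 28193 CPM of RARRES1, the highest of the 13, 6370 CPM of VIM, 5451 CPM of SERPINE2, 11966 CPM of ENO1 and 961 CPM of FST. It lacked others: besides CYP11A1, it held 0.15 CPM of ANGPTL4, 2.69 CPM of SCARB1, 1.19 CPM of TNFAIP8L3 and no count of LPL. With 1 such library, the animal and the single oocyte cannot be told apart.

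Among the 8 oocyte-dominated libraries of gilt 803, the granulosa markers' share of the 9-gene counts did not order the other granulosa genes. Oocyte 4 of stage 1 and oocyte 3 of stage 5, at 19.3% and 23.2% granulosa markers, held 180 and 131 CPM of FSHR, 383 and 201 CPM of CDH2 and 8090 and 2618 CPM of SERPINE2, inside the granulosa-rich ranges. Oocyte 3 of stage 1 and oocyte 4 of stage 3, at 0.018% and 0.33%, held no CDH2 count and 28.3 and 58.2 CPM of SERPINE2. The 2 with the highest shares held less than oocyte 4 of stage 1: oocyte 3 of stage 2, the immune-marker library at 42.8%, held no FSHR count and 61.2 CPM of SERPINE2, and oocyte 4 of stage 5, at 33.1%, held 0.069 CPM of FSHR and 463 CPM of SERPINE2.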

How the data were processed

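The authors deposited a table of raw counts, in whole numbers, for Ensembl gene IDs, with 1 library per column and no normalization. HISAT2 2.1.0, StringTie 1.2.2, featureCounts and Trim Galore 0.4.3 appear per the submitters' processing notes. Build, annotation and strandedness are not stated there, and reads of overlapping genes may be shared. A second deposited table of length-scaled values, with no stated scale (unit: other), served as an alternative only.

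Of 25880 IDs, 14857 matched a symbol; FOXL2 and CYP19A1 had no match and were not analysed here. Counts were divided by the library's total without the 13 mitochondrially encoded protein genes (CPM). Medians were compared with pseudocount 1 (Python 3.11.15, pandas 2.3.3); exact permutation tests used SciPy 1.17.1. TMM factors came from edgeR 4.0.16 and size factors from DESeq2 1.42.0, as scalings only. The fold rule was tested on simulated data. Total counts were 151104 to 38282850; 3 counts are 0.12 to 16.6 CPM in granulosa-rich libraries. Wilson intervals cover counting error only, since PCR copies carry no molecular identifiers.

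The members, lists, rule and tests were chosen with earlier results of these data known. Genes named: the 20 largest differences each way, the 10 higher genes with the highest CPM, up to 4 members of each of 17 lists with the highest CPM, and fixed markers; further list members are named where they make up a count or were at 0. The p-values set a difference in means against those of relabelled libraries of 1 gilt, and do not cover differences between animals. Alternatives covered scaling, pseudocount, minimum level, fold, means, the ratio and genes of the sorting rule, the length-scaled table, and leaving out gilts, shallow, mixed or single libraries. Those chosen after seeing the data left out the 3 nearly alike libraries, the immune-marker library, and 2 abundant IDs without a symbol. Some list members are not reported here.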

Additional observations from a re-analysis of the deposited data

Results flagged for a closer look

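Mitochondrially encoded genes gave 4.68% of the counts in oocyte 4 of stage 2 from gilt 801, where the other libraries of that gilt and stage lay between 82.8% and 90.2%. It was marked because its distance to the nearest of the others was 0.914 of the group's whole range. It is 1 of the 3 nearly alike oocyte-dominated libraries described in the report. In all, 24 sets of libraries of 1 gilt and stage and 1 measure were checked in this way, and chance marks about 1 in 20.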

How the results depend on the processing

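No paired analysis was possible because the replicate numbers only name oocytes within a gilt and stage, and the gene differences come from no test. The number of granulosa-rich libraries was 11 to 15 under other forms of the rule, against 13. For the 606 higher and 1560 lower genes, CPM over all counts gave 1362 and 198, a minimum of 50 CPM 388 and 467, the comparison over all libraries alone 945 and 2436, means of log2 values 316 and 714, a fold of 2 1129 and 2341, and a fold of 16 180 and 253. Lower genes were also 643 with DESeq2 size factors, 901 with a pseudocount of 5 and 424 with the length-scaled table. The cause was not tested, apart from the minimum and the folds, which set how many genes can be called. The median difference over all measured genes was 1.05 with CPM over all counts and -0.54 with TMM factors, against -0.85. Leaving out each granulosa-rich library gave 505 to 790 higher and 1327 to 1862 lower genes. Without the 2 abundant IDs that have no symbol, for which no source used here says whether they are mitochondrially encoded and which took a median of 122390 and 8531 CPM of the oocyte-dominated libraries and 15175 and 1261 of the granulosa-rich ones, 551 were higher and 1743 lower. The difference in log10 total counts was 0.3875 without the shallow libraries (exact permutation p = 0.0284), the only alternative that moved either test past 0.05, which leaves out libraries by the measure tested and so is no support for a difference; without mitochondrially encoded genes it was 0.54 (exact permutation p = 0.0821). Of 123 named genes, none of those past the fold changed direction; among those not past it, COL1A1, CSF1R, FDFT1, HSD17B7, HSPA5, MCM6, MCM7 and NSDHL changed sign under at least 1 alternative. In all, 29 moved by more than the spread among granulosa-rich libraries with CPM over all counts, 19 within gilt 803 and 1 without shallow libraries. Depth limits low genes most in the 2 shallow granulosa-rich libraries.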
